A study of Mus musculus with 35 samples.

Results

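The genes described here are 9 transcription factors that direct the formation and activation of myeloid cells, taken by name from the 53379 genes of the count table: Spi1, Cebpa, Cebpb, Cebpd, Cebpe, Klf4, Gfi1, Maf and Ahr. Their mRNA was measured by total RNA sequencing in myeloid-derived suppressor cells (MDSC), the immature myeloid cells that accumulate in tumor-bearing animals and restrain T cells. C57BL/6 mice carried T110299 tumors in the pancreas, a transplanted cell line that came from the pancreatic cancer of a genetically engineered mouse with Ptf1a-Cre. Treated mice received 50 µg of poly(I:C)c, a double-stranded RNA mimic complexed with polyethylenimine, by vein on days 18 and 20 of tumor growth, and the controls are labelled untreated. PMN-MDSC (CD11b+ Ly6C low Ly6G+) and M-MDSC (CD11b+ Ly6C high Ly6G-) were sorted from spleen and from tumor, and whole tumors of untreated mice were lysed as bulk. The 34 libraries used formed 9 groups of 4, except 3 libraries each for treated PMN-MDSC from spleen and treated M-MDSC from tumor. All animals bore a tumor, so no healthy level is given.

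PU.1, the protein of Spi1, is needed for all myeloid lineages, and its dose helps to set the balance between granulocytes and macrophages. The C/EBP proteins act in sequence along that path: C/EBPα opens granulocyte and monocyte development, C/EBPε completes the granules of the neutrophil, and C/EBPβ and C/EBPδ take over in emergency granulopoiesis and in inflammation. KLF4 favours monocytes, GFI1 represses monocyte genes in granulocyte precursors, MAF belongs to the mature macrophage, and AHR is a ligand-activated sensor of tryptophan metabolites and foreign compounds that dampens inflammatory responses in myeloid cells.

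All 9 genes are protein-coding on GRCm38. Spi1 lies at chr2:91082390-91115756, Cebpa at chr7:35119293-35121928, Cebpb at chr2:167688915-167690418 and Cebpd at chr16:15887286-15891031, all on the forward strand. On the reverse strand lie Cebpe at chr14:54710360-54712174, Klf4 at chr4:55527143-55532466, Gfi1 at chr5:107716657-107726036, Maf at chr8:115682942-115707794 and Ahr at chr12:35497974-35535038. Counts cover the summed exons. None overlaps another gene on its own strand, and counting by strand kept apart the genes that run opposite to Cebpa, Cebpb, Cebpd, Gfi1, Maf and Ahr.

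RefSeq start-site windows of 300 bases, 250 before and 50 after the start, were at hand for Cebpa, Cebpb, Klf4 and Gfi1, and were not used here for Spi1, Cebpd, Cebpe, Maf and Ahr. The windows of Cebpb, which rose after treatment in splenic cells, and of Cebpa and Klf4, which fell in splenic M-MDSC, are printed 5′ to 3′ on the strand of the gene (GRCm38.p6: chr2:167688665-167688964, forward; chr7:35119043-35119342, forward; chr4:55532426-55532725, reverse). The calls of Cebpb in both splenic cell types and of Klf4 in splenic M-MDSC were lost without some single libraries, as given below. Capitals mark the cAMP response element half-site TGACG on either strand.
Cebpb: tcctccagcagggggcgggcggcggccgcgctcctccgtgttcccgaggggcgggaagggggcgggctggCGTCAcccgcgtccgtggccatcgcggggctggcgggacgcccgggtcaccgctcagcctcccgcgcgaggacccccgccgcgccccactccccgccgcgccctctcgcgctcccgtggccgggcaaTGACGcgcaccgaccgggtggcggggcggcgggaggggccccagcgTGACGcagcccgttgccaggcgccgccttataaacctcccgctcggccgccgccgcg
Cebpa: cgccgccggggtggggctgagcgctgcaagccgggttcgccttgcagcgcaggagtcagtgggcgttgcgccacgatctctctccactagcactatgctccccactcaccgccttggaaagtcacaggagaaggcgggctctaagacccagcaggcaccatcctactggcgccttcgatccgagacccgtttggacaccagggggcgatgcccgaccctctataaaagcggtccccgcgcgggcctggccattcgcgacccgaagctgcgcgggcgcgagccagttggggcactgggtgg
Klf4: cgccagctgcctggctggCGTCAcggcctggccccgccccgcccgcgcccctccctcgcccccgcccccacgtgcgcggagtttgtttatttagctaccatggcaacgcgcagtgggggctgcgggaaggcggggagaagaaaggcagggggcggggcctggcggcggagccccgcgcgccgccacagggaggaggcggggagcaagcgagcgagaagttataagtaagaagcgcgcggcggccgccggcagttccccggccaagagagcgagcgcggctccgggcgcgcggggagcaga
The Cebpb window held 3 such half-sites, beginning 180, 53 and 7 bases before the start, Klf4 held 1 and Cebpa held 0, where 20.8% of 32851 mouse windows held at least 1. This element was chosen after the sequences were read. Of 5 other motifs searched on both strands, none was matched in these 3 windows. They were the PU.1 motif GAGGAAG, held by 13.6% of all windows, the interferon-stimulated response element core GAAANNGAA (8.56%), the STAT element TTCNNNGAA (8.30%), the C/EBP motif TTGCNNAA (10.8%) and the xenobiotic response element of AHR, TNGCGTG (5.07%). The C/EBP motif had 1 match in 1 of the 2 Gfi1 windows. GC made up 80.7% of the Cebpb window, 74.3% of Klf4 and 67.3% of Cebpa, against a median of 52.7% over all windows.

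Sorted libraries held 793070 to 4357105 counts and bulk tumors 3771590 to 8886115. Before the results, markers of other cell types outweighed those of the label in several groups. Libraries labelled PMN-MDSC from untreated tumors held 10071 to 13571 CPM (counts scaled to the library total) of 8 macrophage markers and 1069 to 4521 CPM of 10 neutrophil markers, whereas PMN-MDSC from untreated spleens held 513 to 1653 and 22674 to 41100 CPM. Those labelled PMN-MDSC from treated tumors held 7655 to 19109 CPM of macrophage and 4091 to 10333 CPM of neutrophil markers, and the former were the higher sum in 3 of 4 libraries. In untreated PMN-MDSC, Ly6g, which encodes the sorted surface protein, had a median of 1.29 CPM in tumor and 50.8 CPM in spleen. Cxcr2, a neutrophil chemokine receptor and 1 of the 10 neutrophil markers, had a median of 255 CPM in tumor, and its spleen level is not given here. Tumor M-MDSC held 3413 to 8457 CPM of macrophage markers untreated and 5302 to 29359 CPM treated, and in the 3 treated libraries these exceeded 7 monocyte markers (2602 to 4957 CPM). Splenic M-MDSC held 4097 to 10326 CPM of neutrophil markers untreated, more than monocyte markers in libraries 3 and 4, and 1044 to 6251 CPM treated. Libraries that stood apart in their group were untreated splenic PMN-MDSC library 1 (macrophage markers 1653 CPM), treated splenic PMN-MDSC library 1 (neutrophil markers 72642 CPM), untreated tumor M-MDSC library 4 (the smallest) and treated tumor M-MDSC library 2 (macrophage markers 29359 CPM). Treated splenic M-MDSC library 4 also did, with 134 CPM of B cell markers against 12.2, 13.0 and 20.96 CPM in the others, and was left out singly only. The 10 interferon-stimulated genes checked were higher in every treated library than in any untreated library of the same cells, for example 3035 to 5752 against 437 to 494 CPM in splenic M-MDSC.

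**Figure D1:**
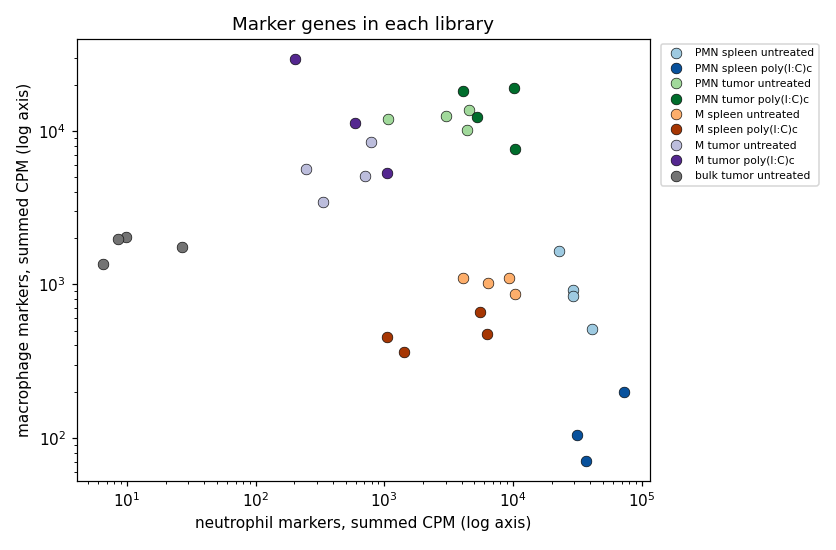
Summed CPM of 10 neutrophil markers (x, log axis) and 8 macrophage markers (y, log axis) in each library, coloured by group. PMN-MDSC from spleen lie at the right, at 22674 CPM of neutrophil markers or more, while PMN-MDSC from tumor lie between 1069 and 10333 CPM on that axis and between 7655 and 19109 CPM on the other.

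Per exon length, Cebpb had the highest mean level of the 9 genes in each of the 9 groups, at 33.2 FPKM in bulk tumor and, in the sorted groups, from 362 FPKM in untreated splenic PMN-MDSC to 1360 FPKM in treated tumor PMN-MDSC (FPKM, CPM divided by the exon length in kilobases). Spi1 came next in all 8 sorted groups, from 103 to 341 FPKM. In untreated splenic PMN-MDSC the ranges of Cebpb and Spi1 overlapped, and in the other sorted groups they did not. The third place changed with the cells. It belonged to Cebpd in splenic PMN-MDSC (129 FPKM ± 46.7, SD, n = 4, untreated) and to Cebpa in untreated splenic M-MDSC (66.0 FPKM ± 12.7, SD, n = 4), followed by Klf4 (48.7 FPKM ± 7.95, SD, n = 4), whose range overlapped that of Cebpa. Gfi1, at 0.216 to 4.08 FPKM, was the lowest in 7 of the 8 sorted groups, and in treated splenic PMN-MDSC Klf4 was the lowest (0.121 FPKM ± 0.122, SD, n = 3).

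**Figure D2:**
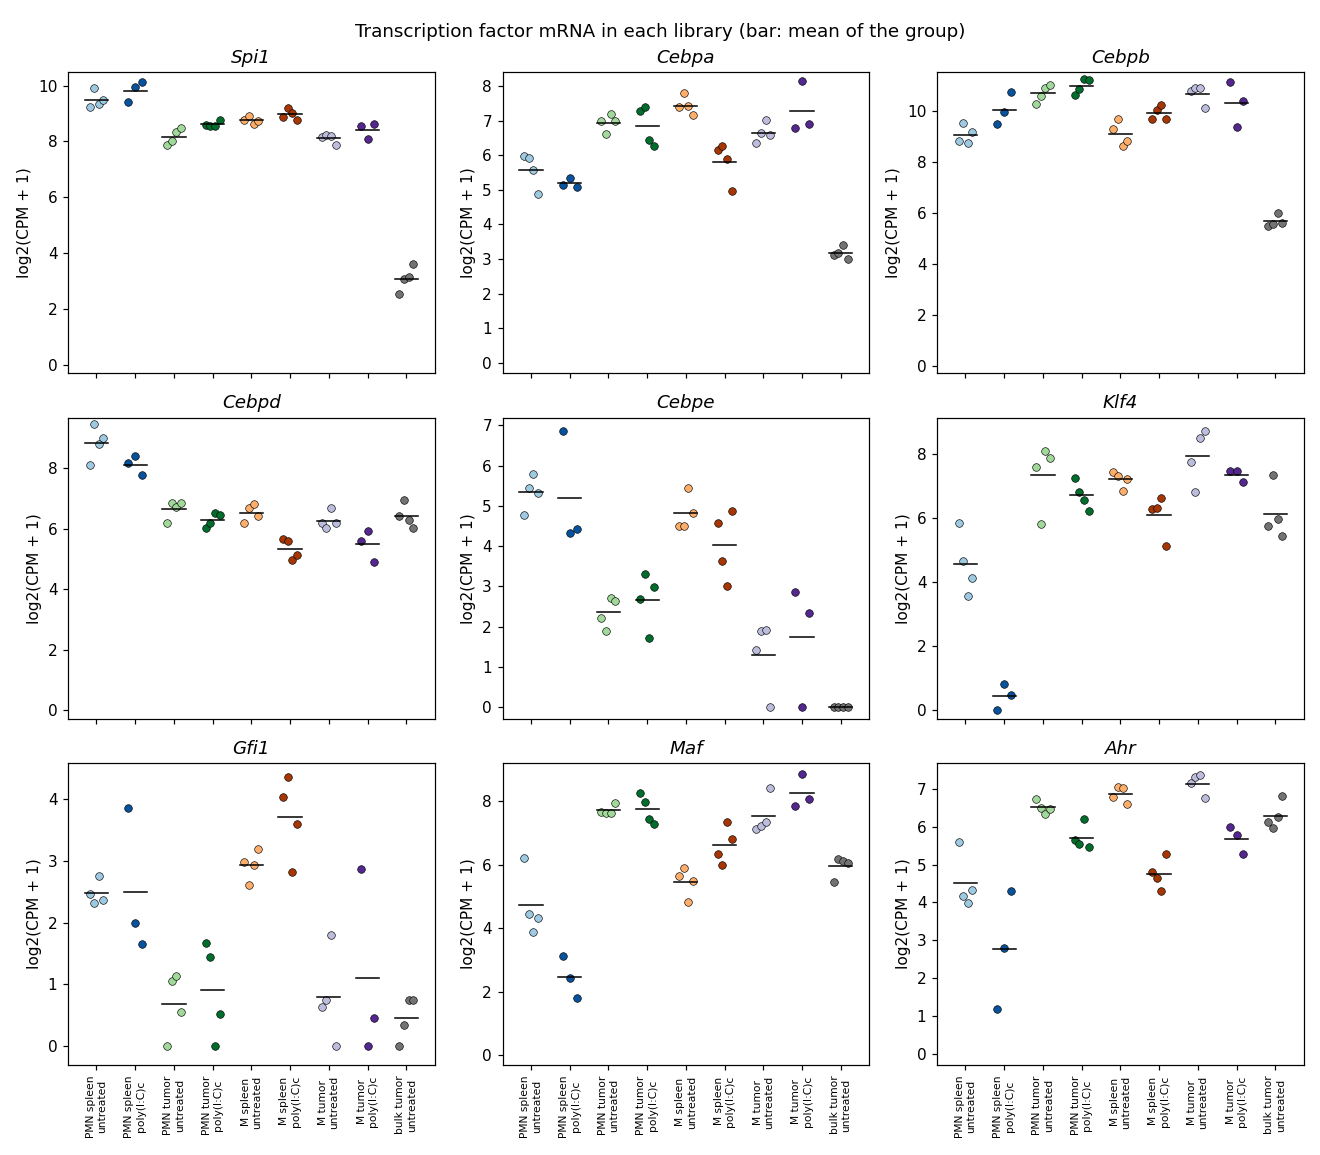
Level of each gene as log2(CPM + 1) in every library (points) with the group mean (bar), for the 8 sorted groups and bulk tumor. Klf4 in treated splenic PMN-MDSC lies between 0 and 0.743 CPM, and Ahr lies lower in treated than in untreated M-MDSC in both compartments.

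Whether poly(I:C)c changed these factors was asked first in splenic M-MDSC, where 6 of 9 genes passed the test (edgeR quasi-likelihood F-test, Benjamini-Hochberg adjusted p below 0.05 over all genes tested), 2 of them higher and 4 lower. Of all 8827 genes tested there, 19.4% passed. Ahr had the largest fold change of the 9. It was at 110, 132, 130 and 96.9 CPM in untreated cells and at 26.8, 23.9, 18.6 and 37.6 CPM after treatment, so that the groups lay far apart, and its level fell 4.24-fold (log2 fold change −2.09 ± 0.21, SE, adjusted p = 0.000219, edgeR).

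Within the C/EBP family the direction was split. Cebpa, the factor of early granulocyte and monocyte commitment, was at 166, 221, 169 and 141 CPM without and at 69.8, 76.6, 58.1 and 30.1 CPM with treatment. All treated libraries were below all untreated ones, and the level fell 2.84-fold (log2 −1.51 ± 0.27, adjusted p = 0.00478, edgeR). Cebpd fell 2.19-fold, from 72.3, 101, 112 and 84.3 CPM to 50.1, 46.9, 30.4 and 34.1 CPM (log2 −1.13 ± 0.20, adjusted p = 0.00387, edgeR). Cebpb, the factor of emergency granulopoiesis, was at 625, 809, 387 and 453 CPM and rose to 809, 1041, 1188 and 817 CPM. Its groups met at 809 CPM, where the lowest treated library stood just under the highest untreated one, and the rise of 1.76-fold was near the threshold (log2 0.81 ± 0.25, adjusted p = 0.0493, edgeR). Cebpe, at 21.6 to 42.2 CPM untreated and 7.09 to 28.3 CPM treated, did not pass (adjusted p = 0.287, edgeR).

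Of the monocyte and macrophage factors, Klf4 fell 1.98-fold in splenic M-MDSC, from 172, 158, 115 and 148 CPM to 76.1, 79.5, 97.9 and 33.6 CPM (log2 −0.99 ± 0.28, adjusted p = 0.037, edgeR). Maf moved the other way, from 49.6, 59.0, 27.3 and 44.0 CPM to 79.3, 62.6, 164 and 112 CPM, a rise of 2.41-fold (log2 1.27 ± 0.32, adjusted p = 0.0237, edgeR). Neither gene had a treated library inside the untreated range. Gfi1 was at 5.11 to 8.09 CPM and at 6.08 to 19.5 CPM, with overlapping ranges (adjusted p = 0.07, edgeR). Spi1, at 399 to 485 CPM and at 439 to 579 CPM, did not pass (adjusted p = 0.217, edgeR).

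Over the same libraries the summed macrophage markers were at 859 to 1106 CPM untreated and 361 to 656 CPM treated, monocyte markers at 6198 to 8996 and 3137 to 4521 CPM, and neutrophil markers at 4097 to 10326 and 1044 to 6251 CPM. Of 11 marker sums, 4 had ranges apart: macrophage, monocyte and erythroid markers (28.3 to 60.5 against 0.675 to 3.16 CPM) lower after treatment, and endothelial markers higher (24.8 to 34.8 against 129 to 293 CPM). Single members of the macrophage and monocyte sums moved both ways. As given below, C1qb, C1qc and Ly6c2 rose, and Mrc1, Ccr2 and Cx3cr1 fell. The part of these markers in the changes of the 9 genes was not tested. Leaving out 1 library at a time left 3 to 6 genes called. Ahr, Cebpa and Cebpd passed each time. Cebpb was lost without untreated library 1, 3 or 4 or treated library 1, 2 or 3 (adjusted p up to 0.127), Klf4 without any of the untreated libraries or treated library 1 or 2 (up to 0.098), and Maf without untreated library 1, 3 or 4 (up to 0.0688, edgeR). Gfi1 passed without treated library 3 (adjusted p = 0.016, edgeR).

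In splenic PMN-MDSC, 2 of 8 genes tested passed, and 11.6% of the 7261 genes tested there. Klf4 was at 56.2, 24.4, 10.8 and 16.4 CPM in untreated libraries and nearly vanished in treated ones, which held 0, 2 and 1 counts of it, or 0, 0.743 and 0.360 CPM (adjusted p = 0.00824, edgeR). From pooled counts the level was 68.1-fold lower, with a counting interval of 23.1 to 332 (95%, exact, counting error only). Untreated library 1 gave 212 of the 344 untreated counts, and without it the pooled fold was 38.3, with an interval of 12.8 to 188. Without treated library 2 it was 126 (22.5 to 4992). Cebpb rose 2.50-fold, from 445, 735, 430 and 570 CPM to 706, 991 and 1683 CPM, where the lowest treated library lay inside the untreated range (log2 1.32 ± 0.35, adjusted p = 0.0424, edgeR).

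Maf was at 72.7, 20.9, 13.9 and 19.3 CPM and at 7.68, 4.46 and 2.52 CPM in the treated libraries of these cells. The groups did not overlap, but the difference did not pass (log2 −2.45 ± 0.69, adjusted p = 0.055, edgeR). With single libraries left out it was −2.85 to −1.69, the smallest without untreated library 1, at adjusted p of 0.0454 to 0.164 (edgeR). Ahr was at 47.5, 16.9, 14.9 and 18.9 CPM and at 1.28, 5.94 and 18.7 CPM, with overlap (adjusted p = 0.329, edgeR). Cebpe was at 26.3 to 54.9 CPM untreated and at 115, 18.9 and 20.5 CPM treated, the highest value being that of treated library 1, which also had the highest neutrophil and proliferation markers (adjusted p = 0.588, edgeR). Spi1, Cebpa and Cebpd did not pass (adjusted p = 0.199, 0.768 and 0.406, edgeR), and Gfi1 was too low to be tested.

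The fall of Klf4 went with lower macrophage markers in these libraries, whose sum was 1653, 912, 513 and 842 CPM untreated and 198, 104 and 70.9 CPM treated. Of 11 marker sums, 5 had ranges apart, and the other 4 were also lower after treatment: dendritic cell (24.1 to 75.1 against 0.640 to 3.34 CPM), erythroid (59.3 to 175 against 0.360 to 7.04), endothelial (25.1 to 67.9 against 9.61 to 15.2) and B cell markers (35.4 to 79.3 against 9.61 to 32.7). Their part in the result was not tested. Without untreated library 1, Klf4 averaged 22.5 counts, under the minimum of 25, and was not tested, so that its call could not be made there. With each of the other 6 libraries left out Klf4 passed (adjusted p up to 0.0437, edgeR). With library 1 of both groups left out together, Klf4 passed and so did Maf (log2 −2.09, adjusted p = 0.0304, edgeR). Maf also passed without untreated library 3 alone (adjusted p = 0.0454, edgeR). Cebpb was lost when untreated library 1, 3 or 4 or treated library 2 or 3 was left out (adjusted p 0.0736 to 0.168, edgeR), and when libraries were scaled by their totals alone (adjusted p = 0.0597, edgeR), a scaling that moved the median of all genes to −0.28 on the log2 scale.

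In tumors, 1 of 7 genes tested passed in each cell type, and it was Ahr both times. In M-MDSC, where 2.88% of all genes tested passed, Ahr was at 142, 158, 165 and 107 CPM in untreated libraries and at 62.8, 54.6 and 38.0 CPM in treated ones, a fall of 2.95-fold (log2 −1.56 ± 0.23, adjusted p = 0.013, edgeR). In PMN-MDSC, where 3.36% passed, it was at 107, 89.4, 80.3 and 88.7 CPM and at 49.3, 46.1, 72.5 and 43.1 CPM, a fall of 1.77-fold (log2 −0.82 ± 0.20, adjusted p = 0.0461, edgeR). In both, every treated library was below every untreated one. So was the sum of the monocyte markers, at 9049 to 12282 CPM untreated and 2602 to 4957 CPM treated in M-MDSC, and at 4419 to 8634 and 1305 to 2998 CPM in PMN-MDSC. Of its members, Ly6c2 rose and Ccr2 fell in PMN-MDSC, as given below. Neutrophil markers were at 1069 to 4521 CPM in untreated and 4091 to 10333 CPM in treated PMN-MDSC. Ranges were apart for 2 of 11 marker sums in PMN-MDSC, with dendritic cell markers lower after treatment (15.6 to 26.1 against 0.861 to 12.8 CPM), and for 4 in M-MDSC, with dendritic cell markers lower (13.6 to 29.1 against 1.69 to 8.49) and endothelial (20.2 to 42.5 against 74.6 to 157) and proliferation markers (125 to 360 against 424 to 692) higher. Their part in the fall of Ahr was not tested. The call in M-MDSC was lost without untreated library 1 or 3 or treated library 3 (adjusted p up to 0.0607, edgeR), and the call in PMN-MDSC without any library but treated library 3 (adjusted p up to 0.139, edgeR).

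The other genes did not pass in tumor. Cebpb was at 1226 to 2062 CPM in untreated and 1588 to 2410 CPM in treated PMN-MDSC, and at 1111 to 1901 and 660 to 2221 CPM in M-MDSC. Cebpd was at 63.4 to 102 CPM in untreated and 29.1 to 59.7 CPM in treated M-MDSC, ranges that did not overlap (log2 −0.86 ± 0.27, adjusted p = 0.119, edgeR). Spi1 in PMN-MDSC was at 233 to 353 CPM and at 377 to 439 CPM, also apart (log2 0.42 ± 0.19, adjusted p = 0.275, edgeR). Klf4 was at 55.8 to 272 CPM and 73.2 to 151 CPM in PMN-MDSC, and at 111 to 419 CPM and 139 to 177 CPM in M-MDSC. Cebpe and Gfi1 were too low to be tested. Treated tumor M-MDSC library 2, with the highest macrophage markers, had the lowest Cebpb of that group (660 CPM) and the highest Cebpa (283 CPM) and Maf (459 CPM). Without it and untreated library 4, 2 genes passed in M-MDSC, Ahr and Maf.

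**Figure D3:**
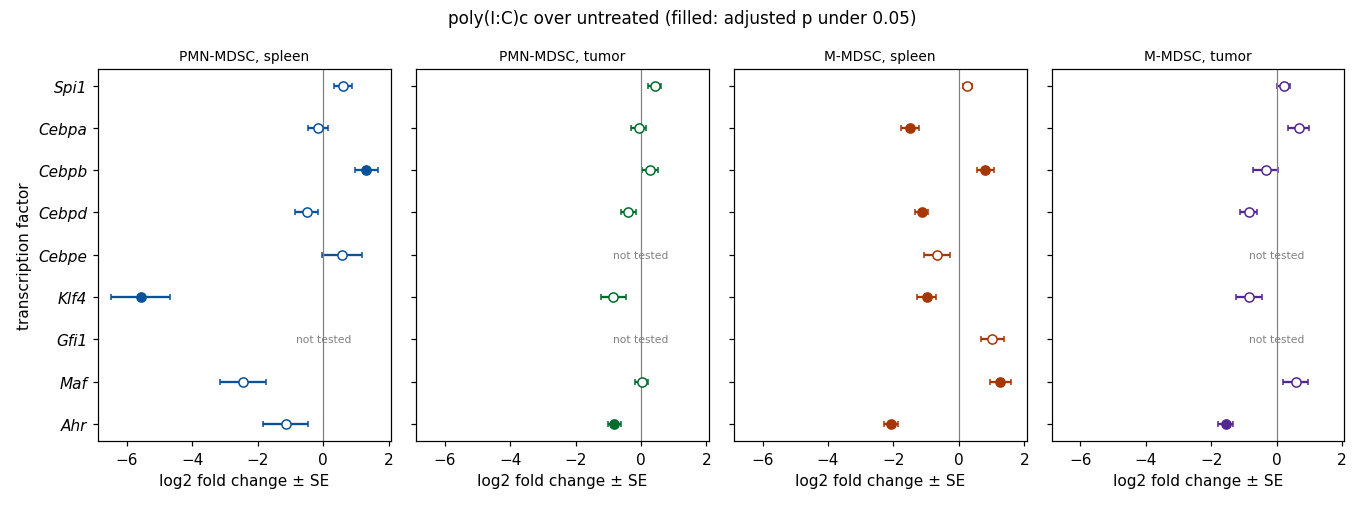
Log2 fold change of each gene, poly(I:C)c over untreated, with its standard error (x) in the 4 sorted populations. Filled points passed at an adjusted p below 0.05 (edgeR), among them Ahr in 3 of the 4 populations, and genes with too few counts are marked as not tested.

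Whether the response differed between compartments or cell types was tested as a difference of fold changes. In PMN-MDSC, where 3.5% of all genes tested passed this test, the fold change was higher in tumor than in spleen for Klf4 (difference 4.73 ± 1.07 on the log2 scale, adjusted p = 0.024, edgeR) and Maf (2.50 ± 0.65, adjusted p = 0.0458, edgeR). In M-MDSC, where 0.79% passed, it was higher in tumor for Cebpa (2.19 ± 0.46, adjusted p = 0.0443, edgeR), which was at 80.3 to 127 CPM in untreated and 109 to 283 CPM in treated tumor cells. These compartment differences did not pass with a block by assumed sets of libraries of the same mouse, described below. Adjusted p was then 0.0789 for Klf4, 0.0809 for Maf and 0.0553 for Cebpa (edgeR). In spleen, where 10.9% passed, the fold change was higher in PMN-MDSC than in M-MDSC for Cebpa (1.42 ± 0.42, adjusted p = 0.0435, edgeR) and lower for Klf4 (−4.52 ± 0.99, adjusted p = 0.0125, edgeR) and Maf (−3.67 ± 0.77, adjusted p = 0.0103, edgeR). In tumor 0 of 7 genes tested passed between cell types with edgeR and with DESeq2, with 1 at an unadjusted p below 0.05 (edgeR), where 0.0239% of all genes passed. The response of Ahr was not shown to differ by compartment (adjusted p = 0.873 in PMN-MDSC and 0.465 in M-MDSC, edgeR) or by cell type (0.367 in spleen and 0.53 in tumor, edgeR).

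For 4 of these 6 differences the call ended when single libraries were left out, whereas Klf4 and Maf between the cell types in spleen passed without each of the 15 libraries (adjusted p up to 0.0452 and 0.0348, edgeR). Their sizes moved from −5.38 without treated PMN-MDSC library 2 to −3.88 without untreated PMN-MDSC library 1 for Klf4, and to −2.89 without the latter for Maf. In PMN-MDSC the difference between compartments was 1.77 for Maf without untreated splenic library 1 and 5.57 for Klf4 without treated splenic library 2. For Maf in PMN-MDSC, leaving out any untreated tumor library, treated tumor library 1, 2 or 3, untreated splenic library 2 or treated splenic library 2 or 3 ended the call (adjusted p up to 0.161, edgeR), and for Klf4 leaving out treated splenic library 2 or 3 did (up to 0.0949). For Cebpa in M-MDSC, 12 of the 15 libraries were each enough to end the call between compartments, all except treated splenic library 4 and treated tumor libraries 1 and 3 (up to 0.107), and for Cebpa in spleen 11 of 15, all except untreated PMN-MDSC library 2, treated PMN-MDSC library 1 and treated M-MDSC libraries 2 and 4 (up to 0.111, edgeR).

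The balance of the 2 C/EBP factors was followed by their ratio within each library, which no scaling between libraries can change. Cebpb exceeded Cebpa per exon length in each of the 34 libraries. In untreated splenic M-MDSC the ratio of FPKM was 4.02 to 6.62, with a median of 6.03, and after treatment it was 20.3 to 47.6, with a median of 29.8. No treated library reached down to the untreated range, and the treated range overlapped that of untreated tumor M-MDSC (20.6 to 38.7). In splenic PMN-MDSC the ratio was 12.7 to 34.9 untreated and 35.8 to 89.1 treated, again without overlap. In tumor the ranges overlapped, with medians of 25.2 and 34.4 in PMN-MDSC and values of 20.6 to 38.7 and 4.09 to 35.8 in M-MDSC, where the lowest value was that of treated library 2. Bulk tumor had 10.1 to 11.9.

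**Figure D4:**
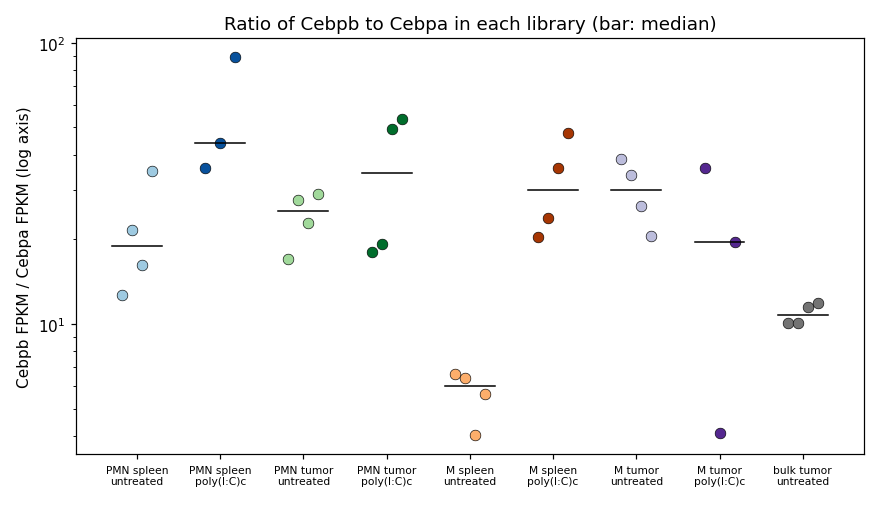
Ratio of Cebpb to Cebpa FPKM in each library (log axis) with the median of the group (bar). Untreated splenic M-MDSC have the lowest median of the 9 groups, 6.03, and treated splenic PMN-MDSC the highest, 44.1.

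Tumor and spleen of untreated mice differed in nearly all factors. In PMN-MDSC, 8 of 8 genes tested passed, against 59.1% of all genes tested, 5 higher in tumor (Cebpa, Cebpb, Klf4, Maf and Ahr) and 3 lower (Spi1, Cebpd and Cebpe). Cebpb was at 1226, 1513, 1909 and 2062 CPM in tumor, above all 4 spleen libraries, a 2.75-fold difference (log2 1.46 ± 0.28, adjusted p = 0.00116, edgeR). Maf was at 202, 199, 196 and 246 CPM, 6.13-fold above spleen (log2 2.62 ± 0.43, adjusted p = 0.000497, edgeR). Klf4, at 191, 55.8, 272 and 233 CPM, was 6.34-fold higher (log2 2.66 ± 0.54, adjusted p = 0.00178, edgeR), although its lowest tumor library was at the level of the highest spleen library. Ahr was 3.41-fold higher (log2 1.77 ± 0.32, adjusted p = 0.00088, edgeR).

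Lower in tumor PMN-MDSC were Cebpe, Cebpd and Spi1. Cebpe, the regulator of secondary granule genes, was at 26.3, 42.3, 54.9 and 39.2 CPM in spleen and at 3.64, 2.71, 5.59 and 5.22 CPM in tumor, 10.1-fold lower (log2 −3.34 ± 0.33, adjusted p = 2.53e-05, edgeR). Cebpd was at 277, 698, 441 and 517 CPM and at 71.6, 113, 104 and 113 CPM, 5.40-fold lower (log2 −2.43 ± 0.33, adjusted p = 0.000139, edgeR). Spi1 was 2.81-fold lower, with 604 to 964 CPM in spleen and 233 to 353 CPM in tumor (adjusted p = 0.000514, edgeR). Between the same libraries the macrophage markers differed 10071 to 13571 against 513 to 1653 CPM and the neutrophil markers 1069 to 4521 against 22674 to 41100 CPM, and their part in these differences was not tested. Of 11 marker sums, 7 had ranges apart. Leaving out any 1 library kept 8 genes called. Without untreated splenic library 1 the log2 difference was 3.38 for Maf and 3.27 for Klf4.

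In M-MDSC of untreated mice, 7 of 8 genes passed, against 28.4% of all genes tested. Cebpb was at 1772, 1899, 1901 and 1111 CPM in tumor, 3.49-fold above spleen (log2 1.80 ± 0.25, adjusted p = 0.000191, edgeR), and Maf at 138, 148, 163 and 345 CPM, 5.25-fold above (log2 2.39 ± 0.34, adjusted p = 0.000355, edgeR). Cebpe was at 0 to 2.77 CPM in tumor, 10.9-fold below spleen (log2 −3.45 ± 0.41, adjusted p = 6.35e-05, edgeR). Smaller differences were found for Klf4 (2.22-fold higher), Ahr (1.47-fold higher), Cebpa (1.45-fold lower) and Spi1 (1.31-fold lower, adjusted p 0.0205 to 0.04, edgeR). These 4 depended on single libraries of both groups, and 4 or 5 genes passed when 1 library was left out. Klf4 was lost without untreated spleen library 2, 3 or 4 or tumor library 3 or 4 (adjusted p up to 0.113), Ahr without spleen library 1 or 4 or tumor library 1, 2 or 3 (up to 0.0789), Cebpa without spleen library 1, 2 or 3 or tumor library 1, 2 or 4 (up to 0.112) and Spi1 without spleen library 1 or 2 or tumor library 3 (up to 0.0783, edgeR). Cebpd did not differ beyond the spread (log2 0.01 ± 0.18, adjusted p = 0.97, edgeR). Macrophage markers were at 3413 to 8457 CPM in tumor and 859 to 1106 CPM in spleen, and neutrophil markers at 247 to 788 and 4097 to 10326 CPM, among 7 of 11 marker sums with ranges apart. Their part was not tested.

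After treatment, 7 of 8 genes differed between tumor and spleen in PMN-MDSC, against 53.6% of all genes, and Cebpb was the exception (adjusted p = 0.299, edgeR). Ahr was called (2.13 ± 0.59 on the log2 scale, adjusted p = 0.0149), and lost without treated spleen library 2 (0.058, edgeR). Its log2 difference was 1.66 to 3.20 with single libraries left out, the largest without treated spleen library 3. Klf4 was at 73.2 to 151 CPM in treated tumor PMN-MDSC and at 0 to 0.743 CPM in spleen (log2 7.41, adjusted p = 8.55e-05, edgeR). By pooled counts the levels were 265-fold apart, with a counting interval of 90.4 to 1285 (95%, exact, counting error only), and 490-fold (87.8 to 19369) without treated spleen library 2. Macrophage markers were at 7655 to 19109 CPM in treated tumor and 70.9 to 198 CPM in treated spleen PMN-MDSC, among 6 of 11 marker sums with ranges apart, and their part was not tested. In treated M-MDSC, 1 of 8 passed, against 5.97% of all genes. That gene was Maf, with 229, 459 and 270 CPM in tumor against 62.6 to 164 CPM in spleen (log2 1.69 ± 0.37, adjusted p = 0.037, edgeR). It was lost without treated spleen library 1, 2 or 4 or treated tumor library 2 or 3 (adjusted p up to 0.127, edgeR), and 0 genes passed without treated tumor library 2. Klf4 and Ahr, which did not pass with all libraries (adjusted p = 0.0634 and 0.0646), did so without treated spleen library 4 (0.0286 and 0.0364, edgeR). Macrophage markers were at 5302 to 29359 CPM in treated tumor and 361 to 656 CPM in treated spleen M-MDSC, the highest being treated tumor library 2, among 5 of 11 marker sums with ranges apart, and their part was not tested. The B cell markers of treated spleen library 4 are given above.

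Between the cell types of untreated spleens, 6 of 8 genes differed, against 64.4% of all genes tested. Spi1 (2.19-fold), Cebpd (6.87-fold) and Cebpe (1.87-fold) were higher in PMN-MDSC, and Cebpa (2.74-fold), Klf4 (4.24-fold) and Ahr (3.66-fold) were higher in M-MDSC (adjusted p 4.72e-05 to 0.0187, edgeR). Without PMN-MDSC library 1 the log2 difference of Klf4 moved from −2.09 to −2.72. Between these libraries 3 of 11 marker sums had ranges apart: neutrophil markers (22674 to 41100 CPM in PMN-MDSC against 4097 to 10326 in M-MDSC), monocyte (679 to 2082 against 6198 to 8996) and proliferation markers (90.1 to 384 against 490 to 1086). Their part was not tested. Cebpe was at 26.3 to 54.9 CPM in PMN-MDSC and at 21.6 to 42.2 CPM in M-MDSC, and its call was lost without M-MDSC library 1, 2 or 4 or PMN-MDSC library 3 (adjusted p up to 0.0649, edgeR). The M-MDSC libraries also held azurophil granule genes of granulocyte precursors. Elane and Mpo averaged 36.8 and 56.3 CPM there, and 0.285 and 1.07 CPM in PMN-MDSC. Cebpb and Maf did not pass with all libraries (adjusted p = 0.335 and 0.821, edgeR). With 1 library left out 5 to 7 genes passed, so that Cebpb or Maf passed in some of these fits.

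After treatment, 5 of 9 genes differed in spleen, against 61.2% of all genes tested. Cebpd was 10.4-fold, Spi1 2.71-fold and Cebpe 4.23-fold higher in PMN-MDSC, and Maf was 15.2-fold lower (adjusted p 8.25e-05 to 0.0329, edgeR). Klf4 was lower in PMN-MDSC too (log2 −6.72, adjusted p = 0.000136, edgeR). By pooled counts it was 174-fold lower, with a counting interval of 59.4 to 847 (95%, exact, counting error only), and 323-fold (57.7 to 12755) without treated PMN-MDSC library 2. Cebpe rested on treated PMN-MDSC library 1 at 115 CPM (log2 2.08, and 0.83 with adjusted p = 0.185 without it) and was also lost without treated M-MDSC library 1, 2 or 3 (up to 0.092), whereas Cebpb, at an adjusted p of 0.0619, passed without PMN-MDSC library 1 (0.00992, edgeR). Ranges were apart for 5 of 11 marker sums. Macrophage (70.9 to 198 CPM in PMN-MDSC against 361 to 656 in M-MDSC), monocyte (768 to 1189 against 3137 to 4521), endothelial (9.61 to 15.2 against 129 to 293) and dendritic cell markers (0.640 to 3.34 against 9.47 to 33.6) were lower in PMN-MDSC, and neutrophil markers (31525 to 72642 against 1044 to 6251) higher. Their part was not tested.

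In untreated tumors, 1 of 7 genes differed, against 13% of all genes tested, and 2 did without M-MDSC library 4. Ahr was at 107, 89.4, 80.3 and 88.7 CPM in PMN-MDSC, just below the 107 to 165 CPM of M-MDSC (log2 −0.61 ± 0.16, adjusted p = 0.0259, edgeR), and this call was lost without M-MDSC library 1, 2 or 3 or PMN-MDSC library 2, 3 or 4 (adjusted p up to 0.1). Between these libraries 4 of 11 marker sums had ranges apart: monocyte markers (4419 to 8634 CPM in PMN-MDSC against 9049 to 12282 in M-MDSC), macrophage (10071 to 13571 against 3413 to 8457), neutrophil (1069 to 4521 against 247 to 788) and endothelial markers (47.9 to 66.1 against 20.2 to 42.5). Their part was not tested. The log2 difference was 0.06 ± 0.21 for Cebpb, 0.11 ± 0.16 for Spi1 and 0.14 ± 0.27 for Maf. In treated tumors, 0 of 7 passed with edgeR, where 0.369% of all genes did, with 2 at an unadjusted p below 0.05 (Cebpd and Klf4, adjusted p = 0.28 and 0.38), and DESeq2 called 0 as well.

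**Figure D5:**
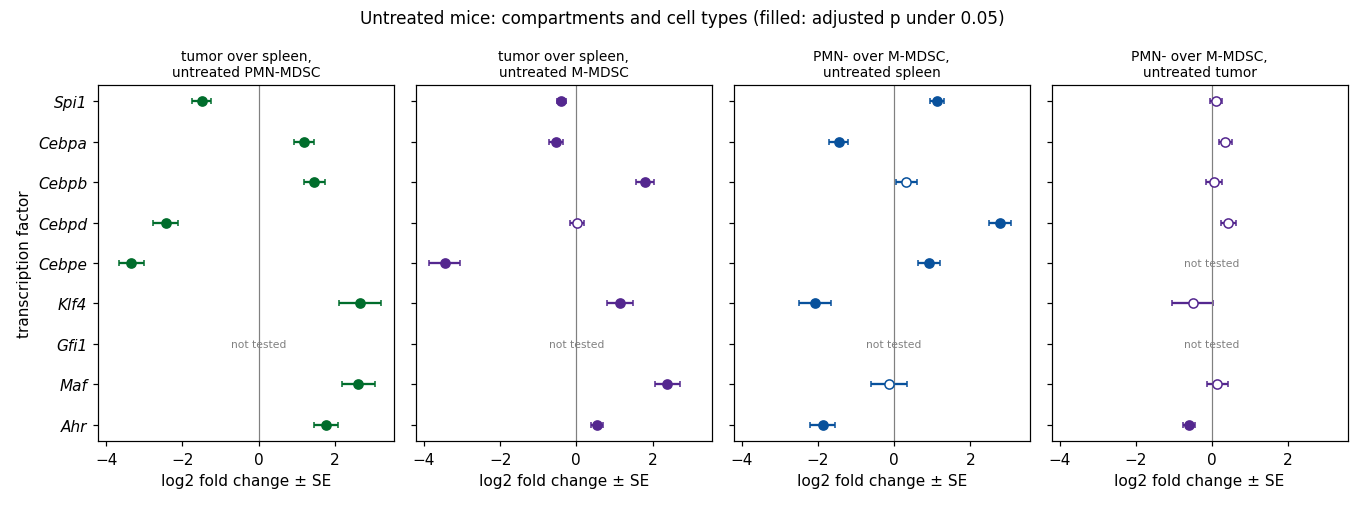
Log2 fold change with its standard error (x) for tumor over spleen and for PMN-MDSC over M-MDSC in untreated mice. Filled points passed at an adjusted p below 0.05 (edgeR), which holds for 8 of 8 genes tested between tumor and spleen in PMN-MDSC and for 1 of 7, Ahr, between the cell types in tumor.

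Bulk tumors, which hold tumor cells and all other cells of the tissue, were set beside the sorted cells of untreated tumors. A lower level in bulk can come from fewer cells that express a gene or from less RNA of it per cell, which cannot be told apart. Against tumor PMN-MDSC, 6 of 7 genes tested passed, where 69.7% of all genes did, and against tumor M-MDSC also 6 of 7, where 69.2% did. All of these were lower in bulk. Spi1 was at 4.76, 7.42, 7.76 and 11.2 CPM in bulk, 45.1-fold below tumor PMN-MDSC (log2 −5.50 ± 0.27, adjusted p = 1.59e-08, edgeR). Cebpb, at 44.0, 45.9, 62.7 and 47.3 CPM, was 40.6-fold lower (log2 −5.34 ± 0.26, adjusted p = 1.38e-08) and Cebpa, at 6.98 to 9.57 CPM, 18.4-fold lower (log2 −4.20 ± 0.19, adjusted p = 1.16e-08, edgeR). Maf differed less, at 43.5 to 71.3 CPM and 4.09-fold lower (log2 −2.03 ± 0.18, adjusted p = 1.47e-06, edgeR).

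Cebpd was at 84.6, 124, 77.0 and 63.3 CPM in bulk, a range that overlapped those of both tumor MDSC types (adjusted p = 0.0886 against PMN-MDSC and 0.935 against M-MDSC, edgeR). Ahr, at 69.0, 62.0, 75.4 and 112 CPM, was 1.38-fold below PMN-MDSC (adjusted p = 0.0401) and 2.06-fold below M-MDSC (adjusted p = 0.00107, edgeR). Klf4, at 52.6, 164, 61.6 and 42.4 CPM, was 2.83-fold below PMN-MDSC (adjusted p = 0.0386) and 3.88-fold below M-MDSC (adjusted p = 0.00472, edgeR). Without bulk library 2 these log2 differences of Klf4 were −2.13 and −2.56. Against PMN-MDSC, Klf4 was lost without bulk library 1, 3 or 4 or PMN-MDSC library 1, 3 or 4 (adjusted p up to 0.116), and Ahr without bulk library 1, 2 or 3 or PMN-MDSC library 1, 2 or 4 (up to 0.106, edgeR). Cebpe had 0 counts in all 4 bulk libraries, which allows up to 0.104 CPM over the group (3 counts, counting error only), and tumor PMN-MDSC held 36 counts. By pooled counts it was at least 33.1-fold below tumor PMN-MDSC (lower end of the 95% exact counting interval). Per exon length the order in bulk was Cebpb (33.2 FPKM), Klf4 (26.3), Cebpd (23.3), Ahr (12.9), Maf (7.57), Cebpa (3.05) and Spi1 (2.89), and the first 3 had overlapping ranges.

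Genes that work with or under these factors were read from lists of known partners and targets. The counts stand beside these shares of all genes called after treatment: 9.96% higher and 9.48% lower in splenic M-MDSC, 6.1% and 5.52% in splenic PMN-MDSC, 2.29% and 1.07% in tumor PMN-MDSC, and 1.82% and 1.06% in tumor M-MDSC. Among 10 granule genes that depend on C/EBPε, 4 rose after treatment in splenic PMN-MDSC and 0 fell (median log2 fold change 1.28, against 0.01 over all genes), where 6.1% of all genes tested were higher, and Cebpe itself was not called. The list shares Mmp8, Ngp, Camp and Ltf with the neutrophil markers, whose sum was 72642 CPM in treated library 1 and 31525 and 36665 CPM in the other 2, and their part was not tested. Without library 1 of both groups, 2 of the 10 rose and 0 fell (edgeR, median 0.81). The 4 genes that rose with all libraries included Mmp8, a neutrophil collagenase (mean 3829 against 800 CPM, log2 2.55 ± 0.30, adjusted p = 0.0028), Lcn2, an iron-sequestering granule protein (log2 1.98 ± 0.39, adjusted p = 0.0171), and Mmp9 (log2 1.12 ± 0.25, adjusted p = 0.0253, edgeR). In splenic M-MDSC 0 of the 10 passed with edgeR (median −0.62), with 1 at an unadjusted p below 0.05, and in tumor 0 passed, with 4 of 10 in PMN-MDSC and 1 of 9 in M-MDSC at an unadjusted p below 0.05. In untreated PMN-MDSC 10 of 10 were lower in tumor than in spleen (median −4.04), where 29.7% of all genes were. The azurophil granule genes of promyelocytes were tested for 3 of 5 members in splenic M-MDSC, and 0 passed after treatment with edgeR (median 0.69), with 1 at an unadjusted p below 0.05.

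Of a list of macrophage genes associated with MAF, 6 of 7 tested were lower in treated splenic PMN-MDSC (median −2.45), against 5.52% of all genes, with Mrc1, the mannose receptor, at a mean of 2.92 against 118 CPM (adjusted p = 0.00368), Cd163 at 0.573 against 30.6 CPM (adjusted p = 0.00453) and C1qc at 10.7 against 69.6 CPM (adjusted p = 0.0165, edgeR). This list shares C1qa, C1qb, C1qc and Mrc1 with the macrophage markers. In splenic M-MDSC, 2 of 6 rose, against 9.96% of all genes, the complement genes C1qc (log2 1.25 ± 0.29, adjusted p = 0.0156) and C1qb (log2 1.50 ± 0.35, adjusted p = 0.0157), and Mrc1 fell (log2 −3.08 ± 0.52, adjusted p = 0.00381, edgeR). In tumor 0 of 8 tested passed with edgeR in PMN-MDSC and 0 of 9 in M-MDSC, with 4 in each at an unadjusted p below 0.05.

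Monocyte genes downstream of KLF4 and PU.1 moved in both directions in splenic M-MDSC, 2 of 7 higher and 2 lower, against 19.4% of all genes called. Of the genes named here, Ly6c2, Ccr2 and Cx3cr1 also belong to the monocyte markers. Ly6c2, part of the sorted Ly6C antigen, rose from a mean of 143 to 919 CPM (log2 2.74 ± 0.21, adjusted p = 4.27e-05), whereas Ccr2, the receptor for monocyte egress, fell from 1348 to 194 CPM (log2 −2.75 ± 0.32, adjusted p = 0.00055), and so did Cx3cr1 (log2 −2.82 ± 0.50, adjusted p = 0.00555, edgeR). In splenic PMN-MDSC 2 rose and 3 fell (median 0.01), against 11.6% called, and without library 1 of both groups 3 rose and 1 fell (median 1.23, edgeR). With all libraries Ly6c2 was higher (log2 4.01 ± 0.35, adjusted p = 0.00126) and Ccr2 lower (log2 −5.92 ± 0.91, adjusted p = 0.00671, edgeR). In tumor PMN-MDSC Ly6c2 rose and Ccr2 fell too (adjusted p = 0.00247 and 0.0367), and in tumor M-MDSC 0 of the 7 passed with edgeR, with 3 at an unadjusted p below 0.05, whereas 1 rose and 2 fell without untreated library 4 and treated library 2. Of 8 surface receptors that PU.1 and C/EBP factors regulate, 2 passed in splenic M-MDSC, near the share of all genes (19.4%). Not all of these receptors bind growth factors or cytokines. Il6ra, an interleukin-6 receptor chain, was lower (log2 −0.92 ± 0.16, adjusted p = 0.0032) and Fcgr1 higher (log2 1.30 ± 0.32, adjusted p = 0.02, edgeR). In splenic PMN-MDSC 2 passed, with Csf1r lower (log2 −1.43 ± 0.34, adjusted p = 0.0302) and Cd14 higher (log2 1.91 ± 0.46, adjusted p = 0.0311, edgeR). In tumor 0 passed with edgeR, with 2 in PMN-MDSC and 3 in M-MDSC at an unadjusted p below 0.05.

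The partners of AHR were measured beside it. Of its partner Arnt and 4 chaperones, 0 passed with edgeR after treatment in splenic M-MDSC, where Ahr itself fell, with 3 at an unadjusted p below 0.05, and 1 of 5 did in splenic PMN-MDSC, the co-chaperone Ptges3 (log2 −1.14 ± 0.27, adjusted p = 0.0285, edgeR). Of 6 AHR target genes only Tiparp, a feedback inhibitor of AHR, had enough counts to be tested in the comparisons of sorted cells. It rose in treated splenic M-MDSC from a mean of 25.6 to 51.5 CPM (log2 1.06 ± 0.22, adjusted p = 0.00842) and fell in treated tumor M-MDSC from 310 to 155 CPM (log2 −1.09 ± 0.24, adjusted p = 0.0455), while Ahr fell in both. Without untreated library 4 and treated library 2 of tumor M-MDSC, Tiparp did not pass there (log2 −0.95, edgeR). The difference between the compartments passed its own test (−2.15 ± 0.33, adjusted p = 0.0115, edgeR). In untreated mice Tiparp was higher in tumor than in spleen in PMN-MDSC (log2 2.11 ± 0.17, adjusted p = 8.98e-06) and M-MDSC (log2 3.86 ± 0.19, adjusted p = 6.28e-08, edgeR). In bulk tumor Cyp1b1, a cytochrome P450 enzyme, could be tested too, and was higher than in tumor PMN-MDSC (mean 7.78 against 1.04 CPM, log2 2.66 ± 0.60, adjusted p = 0.00192) and M-MDSC (log2 3.70 ± 0.69, adjusted p = 0.000527, edgeR).

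Of 11 partners and antagonists of C/EBP factors and PU.1, 9 had enough counts. In splenic M-MDSC, where 19.4% of all genes were called, 2 rose, Trib1, a kinase-like protein that marks C/EBPα for degradation (log2 1.99 ± 0.32, adjusted p = 0.00298), and Ddit3, a C/EBP family inhibitor (log2 1.24 ± 0.24, adjusted p = 0.00631), and 2 fell, among them Cebpg (log2 −0.59 ± 0.11, adjusted p = 0.00495, edgeR). In splenic PMN-MDSC, where 11.6% were called, 2 fell, the PU.1 partners Irf4 (log2 −3.53 ± 0.77, adjusted p = 0.0233) and Irf8 (log2 −2.48 ± 0.59, adjusted p = 0.0296, edgeR). In tumor, Ddit3 rose in PMN-MDSC (adjusted p = 0.0449) and M-MDSC (adjusted p = 0.0347), Irf4 fell in PMN-MDSC (adjusted p = 0.00424) and Runx1 fell in M-MDSC (adjusted p = 0.0306, edgeR). Among 9 co-repressors and targets of GFI1, Id2 rose in splenic PMN-MDSC (log2 2.34 ± 0.58, adjusted p = 0.0354) and M-MDSC (log2 1.53 ± 0.46, adjusted p = 0.0491). The histone deacetylases moved apart in splenic M-MDSC, with Hdac2 lower (log2 −0.44 ± 0.12, adjusted p = 0.0322) and Hdac1 higher (log2 0.57 ± 0.17, adjusted p = 0.0411, edgeR). Egr2 fell in tumor PMN-MDSC (log2 −1.11 ± 0.24, adjusted p = 0.029) and M-MDSC (log2 −1.72 ± 0.33, adjusted p = 0.0308, edgeR).

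Of 36 other myeloid and haematopoietic transcription factors, 30 were tested in splenic M-MDSC, where 4 rose and 4 fell after treatment, against 19.4% of all genes called in either direction. Nr1h3, the lipid sensor LXRα of macrophages, rose there (log2 2.97 ± 0.21, adjusted p = 3.02e-05), in tumor PMN-MDSC (log2 2.34 ± 0.27, adjusted p = 0.00111) and in tumor M-MDSC (log2 3.62 ± 0.39, adjusted p = 0.00428, edgeR). Ets2 rose (log2 1.93 ± 0.25, adjusted p = 0.000847) and Klf6 fell (log2 −0.60 ± 0.10, adjusted p = 0.00332, edgeR) in splenic M-MDSC. In splenic PMN-MDSC, where 11.6% of all genes were called, 1 of 27 rose and 4 fell, among them Fos (log2 −1.35 ± 0.28, adjusted p = 0.0205, edgeR). In tumor 2 of 28 rose and 2 fell in PMN-MDSC, against 3.36% of all genes, and 1 of 30 rose and 2 fell in M-MDSC, against 2.88%.

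The list counts were also taken without the libraries that stood apart (edgeR). In splenic PMN-MDSC without library 1 of both groups, where 10.1% of all genes were called, calls changed for 6 of 10 lists. Beside the granule and monocyte genes above, the other transcription factors gave 0 higher and 4 lower in place of 1 and 4, the partners and antagonists 1 lower in place of 2, the co-repressors and targets of GFI1 0 higher and 1 lower in place of 1 and 0, and the receptors 2 higher and 0 lower in place of 1 and 1. In tumor M-MDSC without untreated library 4 and treated library 2, where 5.66% were called, 7 of 10 lists changed. Beside the monocyte genes and Tiparp above, the other transcription factors gave 2 higher and 2 lower in place of 1 and 2, granule genes 1 higher in place of 0, receptors 1 lower and AHR partners 1 lower in place of 0 each, and the co-repressors and targets of GFI1 0 lower in place of 1.

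Last, the genes whose levels followed each factor most closely were listed over the 30 sorted libraries, by Pearson correlation of log2(CPM + 1) among 8536 genes. The libraries share compartment, cell type and treatment, so these values describe shared patterns only. Cebpb was followed by Nfkbia (0.889), Ccrl2 (0.882) and Clec4e (0.861), and Cebpa by Cx3cr1 (0.887), Il11ra1 (0.877) and Tmem176b (0.871). Maf was followed by Lgmn (0.966) and Slc7a8 (0.965), and Klf4 by Pid1 (0.966), Plekho1 (0.964) and Camsap2 (0.961). Cebpe went with Serpinb1a (0.943), Sept5 (0.938) and Tuba4a (0.935), and Cebpd with Rassf3 (0.956), Cmtm6 (0.954) and Tnrc18 (0.943). Spi1 went with Prr13 (0.965), Dok3 (0.964) and Rnf31 (0.948), and Ahr with Slc36a4 (0.937), Eps8 (0.929) and Ctdp1 (0.900). For Gfi1, the gene nearest to the detection limit, the values were lower (Ikzf1 0.863, Stk16 0.862 and Fcnb 0.856), and with TMM-scaled values 0 of these 3 genes were kept.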

How the data were processed

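Whole-number counts per gene, not normalized, were deposited for 35 libraries. According to their methods, total RNA libraries made by a stranded kit without molecular identifiers were mapped with ContextMap and BWA to GRCm38 and counted by strand with featureCounts (Subread 1.4.6-p3, submitters' processing notes) on the Gencode annotation. Columns were assigned to groups by the cell, organ and treatment in their names. The sample titles number the mice, and spleen, tumor and cell types share those numbers, but column names carry other running numbers with no stated key. These run in sets of 4 that follow the titles, gap included, so that sets of the same mouse can be assumed from them. In the comparisons of tissues and cell types libraries were treated as independent, with a block by assumed sets as an alternative chosen after seeing the data, and p-values measure the spread between these libraries. One M-MDSC library from a treated tumor, with 10 counts, was left out. The 48 pairs of libraries within groups differed by 6.88 to 55.8 in chi-square per degree of freedom, and 0 pairs were identical.

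Symbols, positions and exon lengths came from GENCODE M21, which matched 53274 of 53379 identifiers. CPM and FPKM were computed from the deposited counts and their totals, with a pseudocount of 1 on the log2 scale. Each comparison was fitted on its own groups in R 4.3.3 with edgeR 4.0.16 (TMM factors, robust quasi-likelihood F-test, two-sided), for genes averaging 25 counts or more, and differences of fold changes by an interaction term over 4 groups. Standard errors came from the F statistic. The fit was tested on simulated data. Alternatives were DESeq2 1.42.0, other scalings and filters, 1 fit over all sorted groups, no robust estimates, the stricter threshold of the study (adjusted p of 0.001 and 2-fold) and each library left out in turn. Leaving out the 4 libraries that stood apart, also for the gene lists, was chosen after seeing the data. The 9 genes and all lists were chosen with earlier results of these data known. In the text stand all 9 genes, the 3 genes most correlated with each and, from a list with calls, up to 3 called genes with the smallest adjusted p. Some genes that this rule names are not reported here.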

Additional observations from a re-analysis of the deposited data

Results flagged for a closer look

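Of 62 sets of 4 libraries checked, 1 per gene and group, 7 held a library far from the other 3 in CPM, where chance gives about 1 in 20. Untreated splenic PMN-MDSC library 1 had 72.7 CPM of Maf against 13.9 to 20.9 in the others and 47.5 CPM of Ahr against 14.9 to 18.9. It also had the highest macrophage markers of its group, 1653 CPM, whose part was not tested. Untreated tumor M-MDSC library 4, the smallest, had 1111 CPM of Cebpb against 1772 to 1901 and 345 CPM of Maf against 138 to 163. The others were Spi1 in treated tumor PMN-MDSC library 4 (439 CPM against 377 to 381), Maf in untreated tumor PMN-MDSC library 4 (246 CPM against 196 to 202) and Klf4 in bulk tumor library 2 (164 CPM against 42.4 to 61.6).

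The response to treatment differed between compartments or cell types, by the test of the difference (edgeR), for 3 genes. The differences of log2 fold changes were 4.73 for Klf4 and 2.50 for Maf (tumor minus spleen, PMN-MDSC), 2.19 for Cebpa (tumor minus spleen, M-MDSC), and 1.42 for Cebpa, −4.52 for Klf4 and −3.67 for Maf (PMN-MDSC minus M-MDSC, spleen). Only the differences of Klf4 and Maf in spleen passed with each library left out in turn. With the block by assumed sets, the differences between compartments did not pass.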

How the results depend on the processing

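Leaving aside single libraries left out and the block by sets, of 177 counts of called genes recomputed, 142 stayed within 1.5 times and 35 moved, and of 663 values of single genes 592 kept their side of the threshold, 48 lost it, 23 gained it and 0 reversed. With 1 library left out, 530 values of single genes kept their side, 116 lost it and 5 gained it. The tallies of single genes cover those at an unadjusted p below 0.05 in the main fit, so gains by other genes are not counted. The cause of each change was not tested.

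In the order splenic PMN-MDSC, tumor PMN-MDSC, splenic M-MDSC and tumor M-MDSC, treatment changed 2, 1, 6 and 1 genes, and 0, 0, 1 and 0 at the threshold of the study. Splenic PMN-MDSC gave 1 with at least 10 counts in every library and 4 in 1 fit over all sorted groups. Tumor PMN-MDSC gave 0 in that fit and with library totals alone, and 2 without a filter. Tumor M-MDSC gave 3 without a filter and 2 without the libraries that stood apart. Between tumor and spleen the threshold of the study left 5 in untreated and 3 in treated PMN-MDSC, and 3 in untreated and 0 in treated M-MDSC. Treated PMN-MDSC gave 3 with at least 10 counts, untreated M-MDSC 3 in 1 fit, and treated M-MDSC 4 with DESeq2, 4 without a filter, 3 in 1 fit and 0 without the libraries that stood apart. Between cell types, treated spleen gave 3 at the threshold of the study and with at least 10 counts, and untreated tumor 0 at that threshold, 0 in 1 fit and 2 without the libraries that stood apart. Differences of response gave 0 in PMN-MDSC, M-MDSC and spleen at the threshold of the study. With at least 10 counts, PMN-MDSC and spleen gave 0. PMN-MDSC gave 1 with RLE factors and 1 without the libraries that stood apart, where M-MDSC gave 0, and M-MDSC gave 2 without a filter.

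With 1 library left out, treatment gave 0 to 2, 0 to 1, 3 to 6 and 0 to 1 genes in the order above. Tumor against spleen gave 8, 6 to 7, 4 to 5 and 0 to 2 (untreated and treated PMN-MDSC, then M-MDSC). The cell types gave 5 to 7 and 4 to 6 in spleen and 0 to 2 and 0 in tumor, bulk 4 to 6 and 6, and the differences of response 0 to 2, 0 to 1, 2 to 3 and 0. Scaling by TMM moved 9 of 81 mean CPM by more than 1 SD (0.818 to 1.53 times). The smallest library, of 793070 counts, allows up to 3.78 CPM at a count of 0.

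Pairing by mouse rests on the assumed sets of column numbers. Libraries of 1 set deviated together, at a correlation above 0.1 for every pair, in 3 of 10 pairs of groups, and bulk tumors in 0 of 2. Between cell types, 8 of 8 libraries correlated best with their own set in untreated spleen and in untreated tumor. In treated spleen and treated tumor 4 of 6 and 3 of 6 did. Between tumor and spleen it was 3 of 8 and 4 of 8 in untreated and 5 of 6 and 6 of 6 in treated PMN-MDSC and M-MDSC. For bulk it was 2 of 8 against PMN-MDSC and 0 of 8 against M-MDSC. With the replicate block by these sets, PMN-MDSC against M-MDSC in untreated tumor gave 2 genes, Klf4 (log2 −0.54 ± 0.16, adjusted p = 0.0454, edgeR, and 0.608 without the block) beside Ahr. The difference of response between compartments gave 0 in place of 2 in PMN-MDSC and 0 in place of 1 in M-MDSC. Klf4 was lost between tumor and spleen in untreated M-MDSC (adjusted p = 0.116) and between bulk tumor and PMN-MDSC (0.059, edgeR). The block changed no other call.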
